A study of Homo sapiens with 17 samples.

Results

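LTR12 elements are the long terminal repeats (LTRs) of the HERV9 family of endogenous retroviruses, and their RNA was followed here locus by locus in human IMR90 ER:RAS lung fibroblasts entering oncogene-induced senescence, with or without knockdown of SMARCA4. The members were all repeat loci of class LTR/ERV1 whose subfamily was LTR12, or LTR12 followed by a letter or the sign _. They numbered 5999 of the 4748242 repeat loci in the count tables and of the 164218 loci of the LTR/ERV1 class. LTR12C had 1907 loci, LTR12E 1385, LTR12D 865, plain LTR12 755, LTR12_v 462, LTR12F 437 and LTR12B 188.

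IMR90 ER:RAS cells carry a retrovirally delivered fusion of oncogenic RAS to the oestrogen receptor, which is inactive until 4-hydroxytamoxifen (4OHT) is added. Cells were reverse transfected with siRNA 1 day before 4OHT or its vehicle DMSO was added, and poly(A) RNA was sequenced from day 7. The DMSO siNT group (5 libraries) received vehicle and a nontargeting siRNA, the 4OHT siNT group (6 libraries) received 4OHT and a nontargeting siRNA, and the 4OHT siSMARCA4 group (6 libraries) received 4OHT and an siRNA against SMARCA4, the ATPase subunit of the SWI/SNF chromatin remodelling complex. All groups carry the same ER:RAS construct, and there was no group with SMARCA4 knockdown in DMSO. The titles give a number, 2 or 4, after siNT or siSMARCA4, called the siRNA number here, and end in a tag of 1V to 3V or 1VM to 3VM. The labels explain neither the tag nor what the number means for siNT. They do not say that siNT and siSMARCA4 libraries of the same number were matched. All 4OHT siNT libraries carry a VM tag, whereas 2 of the 5 DMSO siNT and 3 of the 6 4OHT siSMARCA4 libraries carry a V tag. The labels do not say whether libraries of a group came from separate cultures, so the spread between them may be technical.

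An LTR holds the promoter and enhancer of a retrovirus, and a solitary LTR left in the genome after recombination can go on starting transcripts of host genes. LTR12 copies are known for a repeated block rich in CCAAT boxes, the motif bound by the trimeric factor NF-Y, and for serving as alternative promoters of genes such as TP63, TNFRSF10B and GBP2. Inhibitors of histone deacetylases are known to release LTR12 copies from silencing.

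The window below shows that CCAAT-rich block in an LTR12C upstream of the gene RND3, a locus whose RNA was higher in 4OHT siNT than in DMSO siNT. It is the 150 bases of the LTR with the most CCAAT boxes, read 5′ to 3′ on the strand of the LTR from GRCh38, and the capitals mark each CCAAT.
LTR12C upstream of RND3, chr2:150541822-150541971, minus strand: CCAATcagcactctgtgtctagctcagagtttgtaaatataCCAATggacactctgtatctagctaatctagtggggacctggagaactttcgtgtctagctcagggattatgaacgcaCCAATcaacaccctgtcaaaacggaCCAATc

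The window held 4 CCAAT boxes and no ATTGG, the same motif read on the opposite strand. It overlapped no annotated exon and ended 533 bp before the 3′ end of the LTR. A match describes the DNA and says nothing of factor binding in these cells.

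The motif was common to the family. LTR12 loci of at least 300 bp held 5.86 CCAAT or ATTGG per kb, against 2.19 per kb in 81470 other LTR loci of the LTR/ERV1 class of that length. When the loci were cut into tiles of 150 bases, 12.5% of LTR12 tiles held 3 or more such motifs, compared with 0.960% of tiles in the other LTR/ERV1 LTRs and 0.605% of tiles in 35116 RefSeq promoters of 300 bp on GRCh38. The share was highest in plain LTR12, at 29.5%, followed by LTR12F at 21.3%, LTR12D at 17.9%, LTR12_v at 13.7%, LTR12C at 11.9% and LTR12E at 7.68%. LTR12B stood at 1.88%, but 4 of its loci were listed with spans over 3000 bp, up to 92575 bp, and without them its share was 9.90%, above that of LTR12E, and that of the family 13.2%, an alternative chosen after seeing the data.

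Annotated transcripts (GENCODE 44) start at favoured places in these LTRs. The strand of each LTR was read by similarity to an LTR12C locus, itself oriented by a gene annotated to start in it. The strand labels thus lean on the annotation, and that locus was kept in these counts. In loci of 1000 bp or more, 78 annotated starts lay on the strand of the LTR in LTR12C, and 43 of them (55.1%) fell 400 to 500 bp from the 3′ end. In LTR12E, 36 of 88 such starts (40.9%) fell 200 to 300 bp from the 3′ end. Starts on the other strand lay farther away, with medians of 1129 bp for LTR12C (38 starts) and 1040 bp for LTR12E (64 starts), and 20 of those of LTR12E fell 1000 to 1100 bp away. LTR12D had 23 starts on its own strand, of which 7 fell 400 to 500 bp from the 3′ end.

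**Figure D1:**
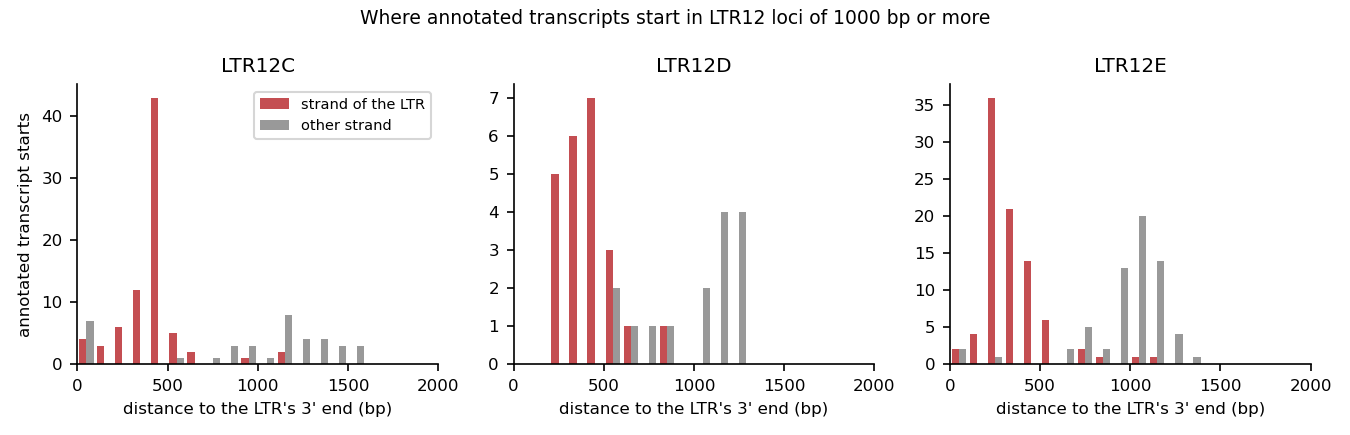
Histograms of annotated transcript starts inside LTR12C, LTR12D and LTR12E loci of 1000 bp or more, in bins of 100 bp. The horizontal axis is the distance from the 3′ end of the LTR in bp, the vertical axis the number of starts, red bars the strand of the LTR and grey bars the other strand. The fullest LTR-strand bin is 400 to 500 bp in LTR12C, with 43 starts, and 200 to 300 bp in LTR12E, with 36.

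The libraries held 39109479 to 68978119 counts, and levels are given as CPM, counts per 1000000 counts of the library, after edgeR's TMM scaling, whose factors ran from 0.949 to 1.08. SMARCA4 checked the labels: its mean level was 198 CPM in DMSO siNT, 268 in 4OHT siNT and 88.0 in 4OHT siSMARCA4 (log2 fold change of knockdown −1.61, adjusted p = 5.13e-07 by edgeR's quasi-likelihood test). The senescence marker CDKN2B and the cytokine gene IL1B rose with 4OHT by 4.01 and 10.14 on the log2 scale. All 8 fibroblast markers were detected, with COL1A1 at 10766 CPM and VIM at 5982 CPM on average in DMSO siNT. In 4OHT siNT 6 of the 8 were called lower than in DMSO siNT, against 27.4% of all genes tested. FAP was called higher (0.52, adjusted p = 0.000913), against 27.0% of all genes. The same 6 were called lower again in 4OHT siSMARCA4, against 13.8% of all genes. The summed level of 5 markers of other cell types stayed between 0.352 and 1.57 CPM in every library, and CDH5 was at 0 in all DMSO siNT libraries. Within that sum the endothelial marker PECAM1 rose from 0.0144 to 0.935 CPM in senescence (5.80, adjusted p = 3.38e-08) and fell to 0.341 CPM with knockdown (−1.43, adjusted p = 0.0046), without overlap in either step. The epithelial marker EPCAM fell from 0.869 to 0.386 CPM (−1.17, adjusted p = 0.000876) and to 0.213 CPM (−0.84, adjusted p = 0.0318), and the part of either in the results was not tested. In bulk RNA a smaller number of expressing cells and less RNA per cell cannot be told apart.

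Very little of the family gave RNA. Of the 5999 loci, 1773 (29.6%) had at least 1 count in any library, 249 had 10 or more counts over all libraries, and 33 (0.550%) passed edgeR's filter on low counts and were tested singly. The share of loci with a count was 37.8% in LTR12E, 33.0% in LTR12C and between 21.3 and 24.4% in the other 5 subfamilies. Of all 40710 LTR12 counts, 35.0% fell in 2 loci and 49.9% in 5. Loci inside introns held 61.2% of the counts, loci outside genes 21.6% and loci touching an exon 17.2%, and the 2 loci with the most counts both lie in introns. Of the counts in introns, 59.0% fell in loci on the strand of the host gene, where reads can belong to unspliced host RNA. How much of the LTR12 RNA began in an LTR was not tested.

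The first comparison, 4OHT siNT against DMSO siNT, addresses what happens to RNA from these loci in senescence. The summed LTR12 level in the DMSO siNT libraries was 26.1, 30.6, 24.9, 26.5 and 28.4 CPM, or 27.3 ± 2.22 (SD, n = 5). The 4OHT siNT libraries ran from 44.04 through a median of 56.7 to 66.6 CPM, with a mean of 55.8 ± 10.01 (SD, n = 6). Every 4OHT siNT library lay above every DMSO siNT library. The difference was 1.01 on the log2 scale (two-sided exact permutation test, p = 0.00216, the smallest this design allows). LTR12 also took a larger share of all LTR/ERV1 counts, 9.90% ± 1.23 against 5.59% ± 0.627, again with no overlap and the same p of 0.00216 in the exact permutation test.

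Without the 5 loci with the most counts, the log2 difference was 0.55 and the difference in share was 0.969 percentage points in place of 4.31. Those loci were ranked by their counts over all 17 libraries, 12 of them with 4OHT, a ranking that favours loci that rose, so these values describe the sum without them and are given with no test.

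The 4OHT siNT libraries split by siRNA number. The 3 libraries with siRNA number 2 held 44.04 to 51.9 CPM of LTR12 and the 3 with number 4 held 61.4 to 66.6 CPM, while DMSO siNT averaged 27.2 CPM with number 2 and 27.5 with number 4. The rise was thus present within both numbers, with log2 ratios of the means of 0.79 and 1.23.

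**Figure D2:**
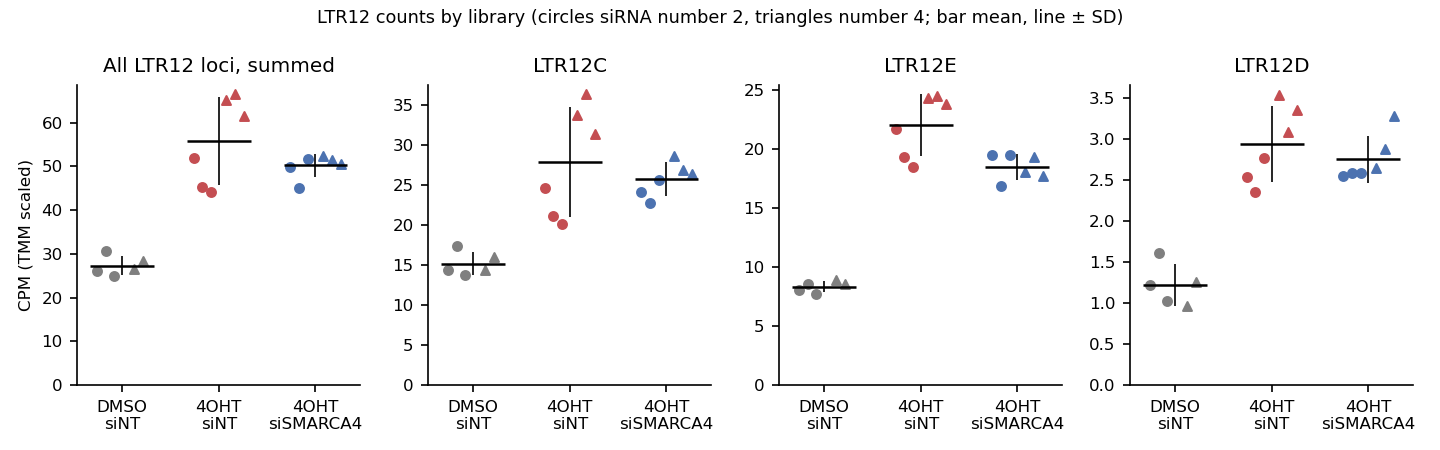
Summed counts of all LTR12 loci and of LTR12C, LTR12E and LTR12D in each library, in CPM after TMM scaling, for DMSO siNT (5 libraries), 4OHT siNT (6) and 4OHT siSMARCA4 (6). Circles are siRNA number 2, triangles number 4, bars means and lines ± SD. All 4OHT siNT libraries exceed all DMSO siNT libraries for the LTR12 total, and the number 4 libraries of 4OHT siNT stand above the number 2 libraries.

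In the second comparison, 4OHT siSMARCA4 against 4OHT siNT, which asks whether LTR12 copies are released when SMARCA4 is lost in senescent cells, the LTR12 total did not pass the test. The 4OHT siSMARCA4 libraries ran from 45.1 through 51.0 to 52.5 CPM, with a mean of 50.2 ± 2.64 (SD, n = 6), inside the range of 4OHT siNT. The log2 difference was −0.13 (exact permutation p = 0.238), and −0.40 (exact permutation p = 0.00866) with library sizes scaled on repeat rows alone, which moved the median of all genes by −0.27. It was 0.06 within siRNA number 2, where the libraries overlapped, and −0.32 within number 4, where they did not. The share of LTR/ERV1 counts was 8.33% ± 0.879, a difference of −1.56 percentage points from 4OHT siNT (exact permutation p = 0.0368) with overlapping libraries, −0.470 points within number 2, where the libraries overlapped, and −2.66 within number 4, where they did not. With 3 libraries against 3 the smallest exact permutation p is 0.1, so neither number alone could pass. The threshold was lost among VM libraries alone, without the 5 loci with the most counts and in 7 of 12 removals of 1 library (4OHT siNT 4-1VM, 4-2VM or 4-3VM or 4OHT siSMARCA4 2-3V, 2-3VM, 4-2V or 4-3V), where it was −1.61 to −1.29 points (exact permutation p up to 0.0714). Another value moved with the knockdown: the summed level of 40680 sparse repeat loci, each over 50000 bp from any gene and holding at most 20 counts in all, was 112 ± 47.9 CPM in 4OHT siSMARCA4, 54.8 ± 10.9 in 4OHT siNT and 74.8 ± 35.9 in DMSO siNT. The 4OHT siSMARCA4 libraries all lay above the 4OHT siNT libraries (exact permutation p = 0.00216). The part of this background in the knockdown results was tested only as a covariate. Results with that covariate were compared for the counts of LTR12 loci and LTR12-start genes and singly for 14 loci, the 7 subfamilies and 9 start genes. No result with it is given here for the HERV9 interiors, the other loci, the neighbouring genes or the listed genes.

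By subfamily, LTR12E, LTR12D and LTR12C rose in senescence and the other 4 did not pass the test (edgeR, adjusted over all repeat subfamilies). Among the 1023 repeat subfamilies tested, 10.2% were called higher and 6.74% lower. LTR12E went from 8.34 ± 0.468 to 22.0 ± 2.61 CPM (log2 fold change 1.40 ± 0.09 SE, adjusted p = 1.04e-09). LTR12D rose from 1.22 to 2.94 CPM (1.27 ± 0.15, adjusted p = 6.04e-06). LTR12C rose from 15.2 to 28.0 CPM (0.88 ± 0.14, adjusted p = 0.000136), with log2 ratios of 0.53 within siRNA number 2 and 1.16 within number 4. None of these 3 overlapped between the groups. LTR12B had a log2 fold change of 0.66 (adjusted p = 0.148), LTR12_v 0.38, LTR12F 0.25 and plain LTR12 −0.11.

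Single loci held 35.6% of LTR12C, 45.1% of LTR12E and 47.5% of LTR12D counts. Left without its top locus, LTR12C differed by 0.10 on the log2 scale, LTR12D by 0.15 and LTR12E by 0.42. The top locus was again picked by counts over all libraries, so the choice tends to remove a locus that rose, and these values are given with no test. The interior of a provirus encodes the retroviral genes that LTR12 flanks, and 1 of the 3 HERV9 interior subfamilies was called. HERV9-int rose from 0.560 to 1.09 CPM (0.96, adjusted p = 0.0011), whereas HERV9NC-int had a log2 fold change of 0.58 (adjusted p = 0.267) and HERV9N-int −0.16 (adjusted p = 0.878).

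With SMARCA4 knockdown 1 of the 7 subfamilies was called, against 19.6% of all subfamilies called higher and 0.978% called lower. That background depended on the scaling: with library sizes scaled on repeat rows alone, 0.592% of subfamilies were called higher and 1.48% lower, and LTR12E was at −0.51 (adjusted p = 0.0308). LTR12E was lower by 0.25 (log2 fold change −0.25 ± 0.08 SE, adjusted p = 0.0301, edgeR), and its libraries overlapped at 18.5 to 24.5 CPM in 4OHT siNT and 16.8 to 19.5 CPM in 4OHT siSMARCA4. Within siRNA number 2 the log2 ratio was −0.09 and within number 4 −0.40, and the call was lost in 13 of its 22 alternatives, the covariate of sparse counts among them. These included leaving out 4OHT siNT 4-1VM, 4-2VM or 4-3VM or 4OHT siSMARCA4 2-3V, 4-2V or 4-3V, where it was −0.25 to −0.22. Without its top locus LTR12E differed by 0.04, given as a description. HERV9-int moved the other way, to 1.53 CPM (0.49, adjusted p = 0.048), with overlapping libraries, while HERV9N-int (0.22, adjusted p = 0.761) and HERV9NC-int (0.19, adjusted p = 0.689) did not pass.

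Of the 33 loci tested singly, 14 (42.4%) rose and 6 (18.2%) fell in senescence, against 20.6% called higher and 7.81% called lower of all 12914 repeat loci tested, and their median log2 fold change was 0.43 against 0.26. These 33 passed a filter on low counts, so a locus silent in all but 1 group could enter only through that group, and the counts do not speak for the other 5966. Among the 13 tested loci in introns 7 rose and 3 fell, among the 15 outside genes 7 rose and 2 fell, and among the 5 touching an exon none rose and 1 fell.

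**Figure D3:**
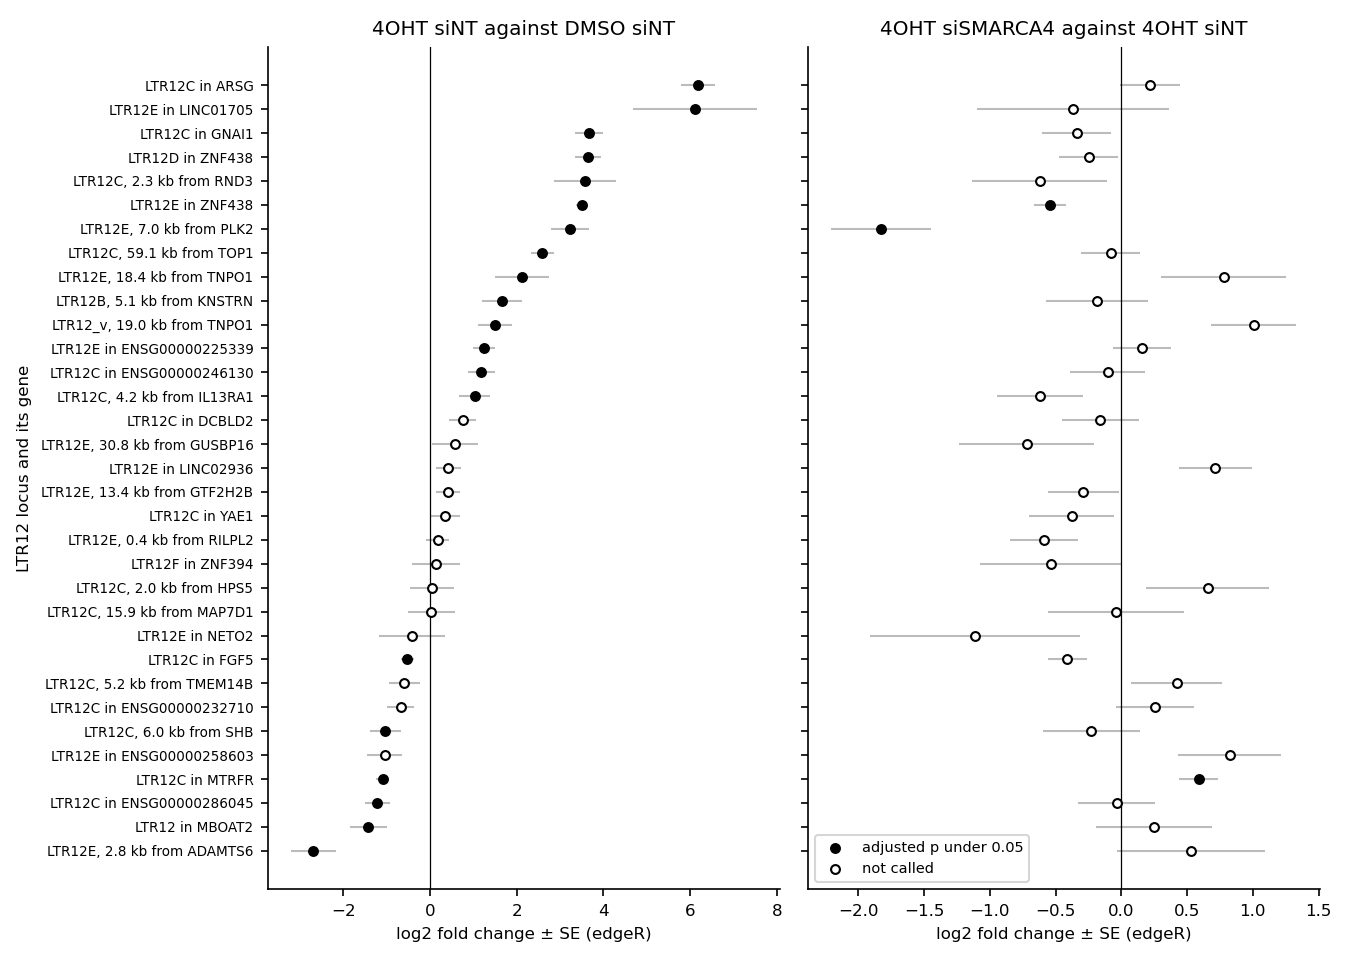
Log2 fold changes (edgeR, ± SE) of the 33 LTR12 loci tested singly, for 4OHT siNT against DMSO siNT and for 4OHT siSMARCA4 against 4OHT siNT, with each locus named by its gene. Filled points are called at an adjusted p under 0.05. In senescence 14 loci are called higher and 6 lower, and with SMARCA4 knockdown 1 is called higher and 2 lower.

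The locus with the most counts was an LTR12C at chr7:79976273-79978172 (1900 bp), in an intron of GNAI1, which encodes an inhibitory G protein alpha subunit, and on the strand opposite to that gene. Its level in the DMSO siNT libraries was 0.803, 0.816, 0.971, 1.32 and 1.14 CPM. In 4OHT siNT it ran from 6.12 through 11.96 to 21.2 CPM. All 4OHT siNT libraries were above all DMSO siNT libraries, with a log2 fold change of 3.66 ± 0.32 SE (adjusted p = 1.13e-07, edgeR). The libraries also split by siRNA number here, at 6.12 to 8.17 CPM with number 2 and 15.7 to 21.2 CPM with number 4. GNAI1 itself had a log2 fold change of −0.16 (adjusted p = 0.374). In 4OHT siSMARCA4 the locus held 7.15 to 13.2 CPM, and the knockdown was not called (adjusted p = 0.471), with log2 ratios of 0.14 within number 2 and −0.59 within number 4.

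The second was an LTR12E at chr10:30929316-30930596 (1281 bp), in an intron of the zinc finger gene ZNF438 and on its strand. The DMSO siNT libraries held 1.19, 0.915, 0.884, 1.30 and 1.09 CPM, the 4OHT siNT libraries 10.04 to 14.3 CPM with a median of 12.3, and the 4OHT siSMARCA4 libraries 6.38 to 9.90 CPM with a median of 8.54. The 3 groups did not overlap. The locus rose by 3.51 ± 0.15 SE in senescence (adjusted p = 1.04e-11) and had a log2 fold change of −0.54 ± 0.12 SE with knockdown (adjusted p = 0.0177). The knockdown difference was −0.61 within siRNA number 2 and −0.49 within number 4, without overlap in either. The call was lost in 6 of its alternatives. These included either number alone, VM libraries alone, the title tag as a replicate block, and the covariate of sparse counts, where it was −0.31. ZNF438 moved with it, by 2.53 (adjusted p = 2.23e-11) and −0.46 (adjusted p = 0.00905). An LTR12D of 109 bp adjoining it at chr10:30929195-30929303 rose as well, from 0.131 ± 0.0685 to 1.69 ± 0.328 CPM (3.64, adjusted p = 3.35e-08). Reads in an intron on the strand of the host can belong to the unspliced host RNA, and whether these began in the LTR was not tested.

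An LTR12C at chr17:68308230-68309470 (1241 bp) was almost silent in DMSO siNT, at 0.0349, 0, 0, 0.0194 and 0.0168 CPM. It reached 0.925 to 1.53 CPM in 4OHT siNT (median 1.19), a log2 fold change of 6.18 ± 0.40 SE, and 1.10 to 2.01 CPM in 4OHT siSMARCA4 (knockdown adjusted p = 0.637). This LTR12C passed the filter on low counts only through the 4OHT groups, so no p-value is given for its rise. It was chosen by the rule for named loci. It lies on the opposite strand in an intron of the sulfatase gene ARSG and, on the same strand, 16963 bp upstream of SLC16A6, a member of the monocarboxylate transporter family. SLC16A6 rose from 12.6 ± 4.62 to 465 ± 29.4 CPM (5.20, adjusted p = 2.49e-13) and further to 671 ± 43.9 CPM with knockdown (0.53, adjusted p = 0.0171). ARSG rose by 1.62 (adjusted p = 1.64e-07).

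An LTR12E at chr5:58445586-58447029 (1444 bp) lies 6953 bp downstream of PLK2, a polo-like kinase gene induced by stress, on the same strand. It held 0.262, 0.278, 0.121, 0.136 and 0.0503 CPM in DMSO siNT, 0.628 to 3.31 CPM in 4OHT siNT (median 1.46) and 0.261 to 0.715 CPM in 4OHT siSMARCA4 (median 0.444). All 4OHT siNT libraries lay above DMSO siNT (3.23 ± 0.45 SE, adjusted p = 2.08e-05), with log2 ratios of 2.18 within siRNA number 2 and 4.56 within number 4. The lowest 4OHT siNT library lay within the range of 4OHT siSMARCA4. The knockdown fold change was −1.83 ± 0.38 SE on the log2 scale (adjusted p = 0.0122), and −1.16 and −2.28 within siRNA numbers 2 and 4 with no overlap inside either number. The call was lost with either number alone and with the covariate of sparse counts (−1.77). PLK2 rose by 0.84 in senescence (adjusted p = 1.77e-05) and had a knockdown log2 fold change of −0.26 (adjusted p = 0.132).

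An LTR12C at chr2:150541289-150543121 (1833 bp) lies 2278 bp upstream of RND3, and its CCAAT-rich window is printed above. It went from 0, 0.0199, 0, 0.0968 and 0.0168 CPM in DMSO siNT to 0.142 to 0.527 CPM in 4OHT siNT (3.57 ± 0.71 SE), without overlap. This locus, too, passed the filter on low counts only through the 4OHT groups, so no p-value is given for its rise. The DMSO siNT libraries held 7 counts together, and the log2 ratio was 5.32 within siRNA number 2 and 2.81 within number 4. RND3 rose by 0.50 in senescence (adjusted p = 0.00161) with overlapping libraries, and by 0.70 with knockdown (adjusted p = 0.000325), a step in which the LTR was not called (adjusted p = 0.516). An LTR12C at chr20:40969190-40969745, 59077 bp from the topoisomerase gene TOP1, rose from 0.280 ± 0.133 to 1.69 ± 0.323 CPM (2.59, adjusted p = 7.51e-07). An LTR12E at chr5:72935108-72935686 rose from 0.0348 ± 0.0316 to 0.165 ± 0.108 CPM (2.13), a call lost within either siRNA number and among VM libraries alone. This LTR12E passed the filter only through the 4OHT groups, and no p-value is given for its rise. The log2 ratio was 2.198 within number 2 and 2.32 within number 4, without overlap in either.

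An LTR12E at chr1:222049565-222050867, on the opposite strand within the long noncoding RNA gene LINC01705, had no count in any DMSO siNT library and 0 to 0.309 CPM in 4OHT siNT, where 2 of the 6 libraries were also at 0. Its 4OHT siNT mean of 0.159 ± 0.135 CPM (SD, n = 6) was 14.7 times a floor of 3 counts over the DMSO siNT libraries together. Having no count in DMSO siNT, it passed the filter on low counts only through the 4OHT groups, so no p-value is given for it. This locus fell outside the rule for named loci and was chosen after its values were seen. LINC01705 rose by 6.65 (adjusted p = 1.99e-13).

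**Figure D4:**
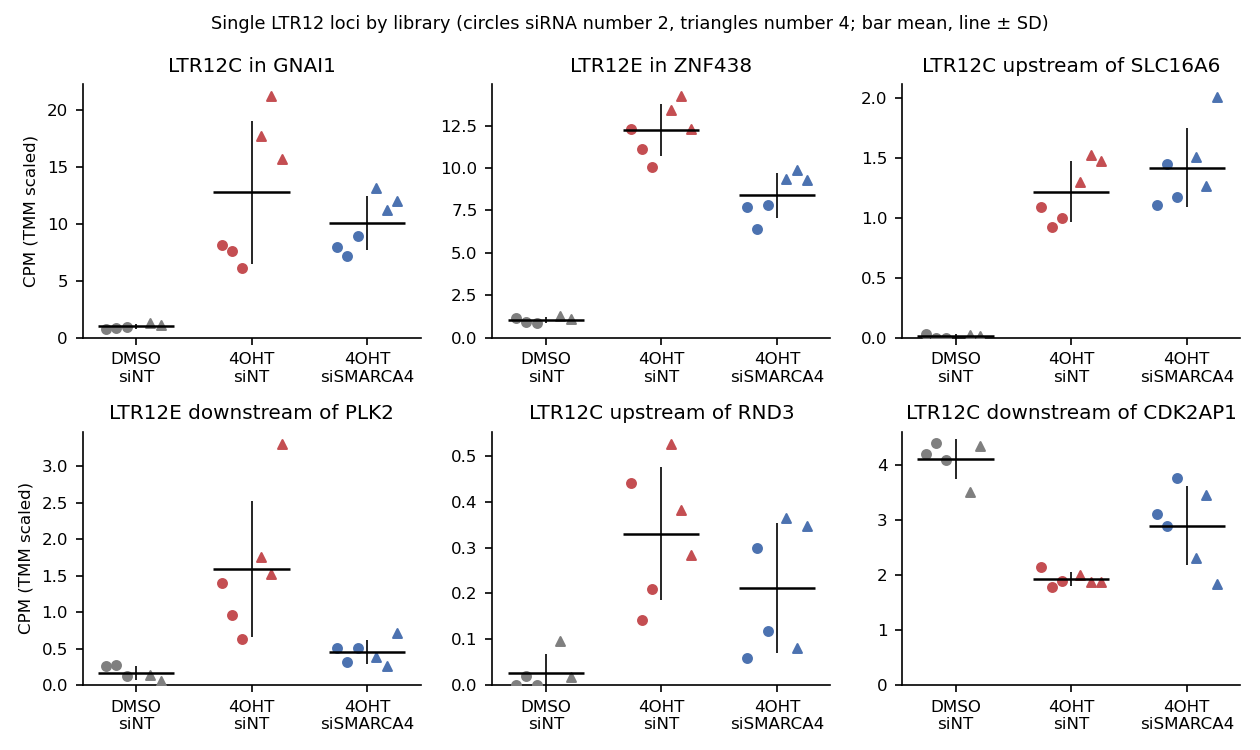
Levels of 6 single LTR12 loci in each library, in CPM after TMM scaling, for DMSO siNT (5 libraries), 4OHT siNT (6) and 4OHT siSMARCA4 (6). Circles are siRNA number 2, triangles number 4, bars means and lines ± SD. The 3 groups are apart for the LTR12E in ZNF438, and the 4OHT siNT libraries of the LTR12C in GNAI1 fall at 6.12 to 8.17 CPM with number 2 and 15.7 to 21.2 CPM with number 4.

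The loci that fell in senescence were also spread over the genome. The third locus by counts, an LTR12C at chr12:123248419-123249827, crosses an exon of MTRFR, a mitochondrial translation rescue factor gene, on the opposite strand, and starts 285 bp past the end of CDK2AP1, a gene for a CDK2-associated protein, on the same strand. It held 4.20, 4.40, 4.09, 3.50 and 4.34 CPM in DMSO siNT, 1.78 to 2.15 CPM in 4OHT siNT and 1.84 to 3.76 CPM in 4OHT siSMARCA4. Every 4OHT siNT library lay below DMSO siNT (−1.09 ± 0.16 SE, adjusted p = 3.29e-05). It was the single LTR12 locus called higher with knockdown (0.59 ± 0.15 SE, adjusted p = 0.0307), with overlapping libraries, log2 ratios of 0.75 within number 2 and 0.41 within number 4, and the call lost in 13 of 23 alternatives, the covariate of sparse counts among them. Leaving out any of 8 libraries ended the call, with values of 0.50 to 0.60, namely 4OHT siNT 2-2VM, 4-1VM, 4-2VM or 4-3VM and 4OHT siSMARCA4 2-1VM, 2-3V, 2-3VM or 4-2VM. CDK2AP1 changed by −0.45 in senescence (adjusted p = 5.23e-05) and 0.19 with knockdown (adjusted p = 0.0643), and MTRFR by −0.91 (adjusted p = 4.7e-06) and −0.06.

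An LTR12E at chr5:65484722-65485994, 2802 bp upstream of the metalloprotease gene ADAMTS6, fell from 0.384, 0.358, 0.347, 0.194 and 0.285 CPM to 0 to 0.0889 CPM (−2.69 ± 0.51 SE). It passed the filter on low counts only through DMSO siNT, so no p-value is given for this fall. Its call was lost within siRNA number 4, where the log2 ratio was −2.58 without overlap. ADAMTS6 fell by 0.71 on the log2 scale (adjusted p = 0.000403). ADAMTS6 rose by 0.85 with knockdown (adjusted p = 0.000364), while the LTR was not called (adjusted p = 0.634). A plain LTR12 at chr2:8894647-8895631 in an intron of MBOAT2, a lysophospholipid acyltransferase gene, changed by −1.42 (adjusted p = 0.0174, lost with no filter on low counts and within either siRNA number, where the log2 ratios were −1.46 and −1.47 without overlap) and MBOAT2 by −0.90 (adjusted p = 6.87e-07). An LTR12C at chr4:80302656-80304045, in an intron of the growth factor gene FGF5 and on its strand, changed by −0.52 (adjusted p = 0.015) with overlapping libraries, and FGF5 by −1.39 (adjusted p = 1.62e-07). The call on this LTR was lost with no filter on low counts and within either siRNA number, where the log2 ratios were −0.62 and −0.46 and the libraries did not overlap. An LTR12C at chr2:75711606-75712878 lies in an intron of ENSG00000286045, on its strand, and 621 bp from GCFC2. It changed by −1.22 (adjusted p = 0.00327, lost within number 4, where the log2 ratio was −1.26 without overlap) and GCFC2 by −0.56 (adjusted p = 0.000345).

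The other 5 loci called in senescence fell outside the rule for named loci and are given for completeness. An LTR12E at chr6:34268843-34270135, in a long noncoding RNA gene that did not pass (ENSG00000225339), rose from 0.355 ± 0.113 to 0.849 ± 0.0841 CPM without overlap (1.25, adjusted p = 0.000724). The libraries of the remaining 4 overlapped between the groups. An LTR12_v at chr5:72935687-72936334, which adjoins the LTR12E near TNPO1, rose by 1.499 and stood at 0.505 ± 0.172 CPM in 4OHT siSMARCA4 against 0.248 ± 0.0973 in 4OHT siNT (1.01, adjusted p = 0.0712). An LTR12B at chr15:40399405-40399868 rose by 1.66, while the nearest tested gene KNSTRN, a kinetochore protein gene, fell by 0.46 on the log2 scale. The LTR12_v and the LTR12B passed the filter on low counts only through the 4OHT groups, so no p-value is given for their rise. An LTR12C at chrX:118798778-118800657, 4243 bp from IL13RA1, rose by 1.03 (adjusted p = 0.0353). An LTR12C at chr9:38075190-38077013, 5963 bp from the adaptor gene SHB, changed by −1.03 (adjusted p = 0.0399), and SHB rose by 0.27 (adjusted p = 0.0131).

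The fourth locus by counts, an LTR12E at chr2:113703869-113704969, holds the annotated start of the long noncoding RNA LINC02936 and lies 42 bp from SLC35F5, a solute carrier gene. It held 0.716 to 1.86 CPM in DMSO siNT, 1.63 to 1.93 CPM in 4OHT siNT and 1.02 to 3.90 CPM in 4OHT siSMARCA4, where 5 of 6 libraries exceeded every 4OHT siNT library and the library 4-3V lay below them all. Its knockdown log2 fold change was 0.71 ± 0.28 SE (adjusted p = 0.127), so it was not called, with log2 ratios of 1.10 within number 2 and 0.26 within number 4. Over its 23 alternatives the fold change was 0.30 to 1.14 (adjusted p up to 0.771). Without that library it was 0.89 and passed the test, but the library was picked for its low value, so this is a description. SLC35F5 rose by 0.42 with knockdown (adjusted p = 0.000856) and LINC02936 by 1.05 (adjusted p = 0.00431).

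Each of the 20 loci called in senescence was set beside the gene that contains it or the nearest tested gene outside it. The latter was used for loci outside genes and for the LTR12C near GCFC2, which lies in an intron of another gene, ENSG00000286045. Of the 14 loci that rose, the gene rose at 7, fell at 1 and was not called at 6. Of the 6 that fell, the gene fell at 5 and rose at 1. Among all 19442 genes tested 27.0% were called higher and 27.4% lower in senescence. A gene and an LTR within it can share reads, and 2 of the 14 are the adjoining loci in ZNF438 and 2 adjoin each other near TNPO1, so these pairs are not independent.

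**Figure D5:**
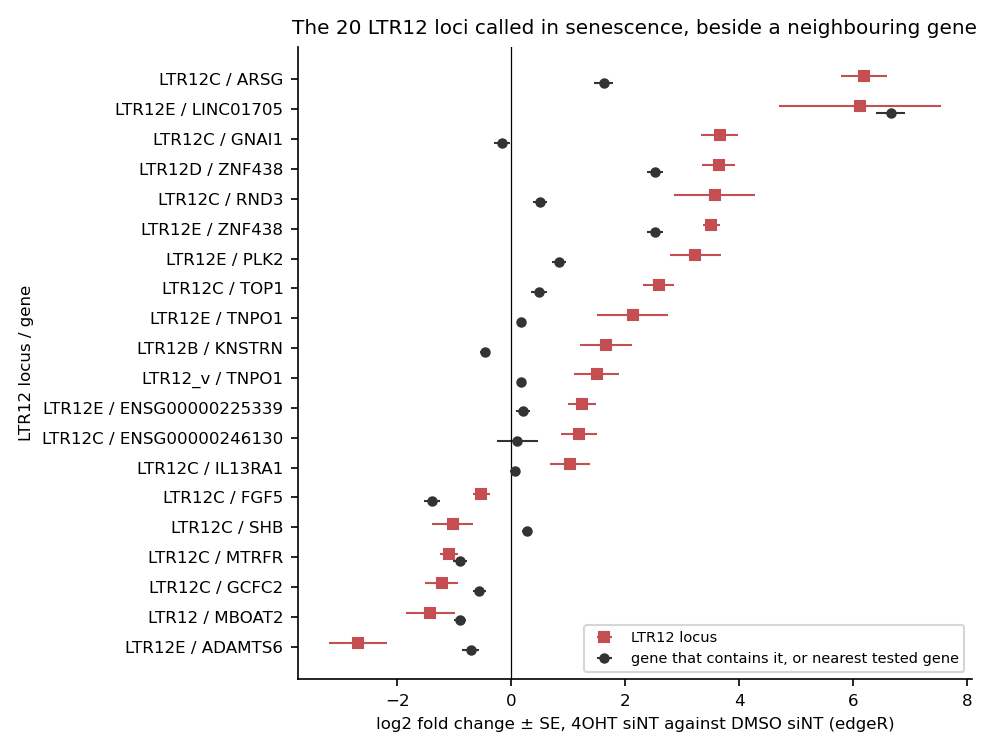
Log2 fold changes (edgeR, ± SE) in 4OHT siNT against DMSO siNT of the 20 LTR12 loci called in senescence (red squares) and of the gene that contains each, or the nearest tested gene (black circles). The gene is called in the direction of the locus at 7 of the 14 higher loci and 5 of the 6 lower loci.

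With knockdown 3 of the 33 loci were called, 1 higher (3.03%) and 2 lower (6.06%), against 4.2% higher and 1.79% lower of all repeat loci tested, and the median log2 fold change was −0.16 against 0.14. With library sizes scaled on repeat rows the background turned to 1.63% higher and 4.33% lower, the LTR12 calls were 0 higher and 3 lower of 31, and the medians were −0.38 for LTR12 and −0.14 for all loci. The unadjusted p (edgeR) was under 0.05 at 8 loci. The share of all repeat loci at that level is not given here, so this count does not set LTR12 apart. No locus was called when the libraries of siRNA number 2 (9 libraries) or number 4 (8 libraries) were fitted alone or when the level of sparse counts was added as a covariate. The shares of all repeat loci called in those fits are not given here, so these counts do not set LTR12 apart from other repeats.

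Annotated genes that begin in an LTR12 copy gave another view of the family. The start of 205 genes lay in an LTR12 locus, 166 of them long noncoding RNA genes and 34 protein coding, and 32 passed the filter and were tested. In senescence 2 (6.25%) rose and 14 (43.8%) fell, against 27.0% and 27.4% of all genes, with a median log2 fold change of −0.25 against 0.00. Without the library DMSO siNT 4-3VM, 4 of 33 rose and 15 fell, and counting genes with any transcript start in LTR12, 11 (14.1%) of 78 rose and 28 (35.9%) fell. Of the 21 with a start on the strand of the LTR, 1 rose and 8 fell. With knockdown 4 (12.5%) rose and 3 (9.38%) fell, against 10.4% and 13.8% of all genes. With sparse counts as covariate 1 rose and 2 fell, and the share of all genes with that covariate is not given here. When library sizes were scaled on repeat rows alone, which moved the median of all genes by −0.27 with knockdown, 2 rose and 7 fell, against 1.76% and 30.0% of all genes. A gene's count sums all its transcripts, so it does not say how many began in the LTR.

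ZFPM2, a cofactor of GATA factors, showed the widest fall of the 32, from 13.6, 17.7 and 18.9 CPM at its lowest, median and highest in DMSO siNT to 1.23, 1.54 and 1.88 CPM in 4OHT siNT (−3.44 ± 0.15 SE, adjusted p = 1.69e-12), and it was lower again with knockdown at 0.629 to 1.17 CPM (−0.78 ± 0.15 SE, adjusted p = 0.00137). MIR100HG, the host transcript of a microRNA cluster, went from 81.9 ± 13.7 to 16.3 ± 2.29 CPM (−2.33, adjusted p = 2.1e-11). C1orf112, a gene linked to DNA repair, changed by −1.49 (adjusted p = 7.65e-08) and the transcription factor gene TCF4 by −0.62 (adjusted p = 0.00135). PRCP, which encodes a lysosomal carboxypeptidase, was lower in both steps, from 88.0 ± 7.45 to 54.5 ± 8.04 and 35.2 ± 5.07 CPM (−0.69, adjusted p = 2.35e-05, then −0.63, adjusted p = 0.000358, lost within siRNA number 4).

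MAP3K7CL fell in senescence by 0.76 on the log2 scale (adjusted p = 0.000115) and rose with knockdown by 0.77 (adjusted p = 0.000499), from 13.9 ± 2.04 to 23.7 ± 5.61 CPM. IL16, a cytokine gene whose start lies in an LTR12C on its strand, went from 0.571 to 1.23 CPM in 4OHT siNT to 0.117 to 0.522 CPM in 4OHT siSMARCA4 (−1.86 ± 0.48 SE, adjusted p = 0.00946). The call was lost within siRNA number 4 and with the covariate of sparse counts, and the fold change was −2.81 to −1.13 over its 22 alternatives. The long noncoding RNA LINC01252, whose start lies in an LTR12E on its strand, rose in both steps, from 0.0928 ± 0.0692 to 0.244 ± 0.0254 CPM (1.39, adjusted p = 0.00174, with overlapping libraries) and to 0.442 ± 0.0936 CPM (0.85, adjusted p = 0.0306). The senescence call was lost within siRNA number 4 (0.83, adjusted p = 0.217). The knockdown call was lost in 13 of 22 alternatives, among them leaving out 4OHT siNT 2-1VM, 2-2VM or 4-1VM or 4OHT siSMARCA4 2-3V or 4-3V, where it was 0.77 to 0.86. GARS1, which encodes glycyl-tRNA synthetase, rose by 0.32 in senescence (adjusted p = 0.000193), a call lost with library sizes scaled on repeat rows and within siRNA number 4.

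Of 7 genes known to be started from an LTR12 copy in other cells, 2 were tested. TNFRSF10B, the death receptor gene, rose from 169 ± 23.5 to 379 ± 29.6 CPM in senescence (1.17, adjusted p = 6.93e-08). An LTR12C at chr8:23069937-23071352, 906 bp upstream of it, rose from 0.187 ± 0.0925 to 0.427 ± 0.134 CPM (1.18, adjusted p = 0.00792), with overlapping libraries. That LTR lies on the opposite strand in an intron of ENSG00000246130, which was not called. Neither TNFRSF10B nor the LTR was called with knockdown (adjusted p = 0.811 and 0.877). GBP2, an interferon-induced GTPase gene, changed by −1.66 in senescence (adjusted p = 0.000282), with overlapping libraries. TP63, GBP5, ADH1C, DHRS2 and ZNF80 had 3 to 54 counts over all 17 libraries and were not tested.

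Of 9 genes for factors that bind or restrain LTR12, 7 were tested, and in senescence 2 rose and 2 fell, against 27.0% and 27.4% of all genes. The NF-Y subunit gene NFYA rose from 31.9 to 61.9 CPM (0.96, adjusted p = 3.72e-09) and the zinc finger gene MZF1 by 0.85 (adjusted p = 8.95e-08). The subunit gene NFYB changed by −0.88 (adjusted p = 6.44e-05) and GATA2 by −0.61 (adjusted p = 0.0023). NFYC, the corepressor gene TRIM28 and the histone methyltransferase gene SETDB1 did not pass. None of the 7 was called with knockdown by edgeR, with NFYA nearest the threshold (−0.19, adjusted p = 0.0535). Of the 10 class I and II histone deacetylase genes, all tested, HDAC4 (0.40) and HDAC8 (0.24) rose in senescence, and HDAC5 (−1.22), HDAC6 (−0.52) and HDAC7 (−0.24) fell, against the same 27.0% and 27.4% of all genes. In that step the libraries of HDAC6, HDAC7 and HDAC8 overlapped between the groups, and those of HDAC4 and HDAC5 did not. With knockdown HDAC9 rose by 0.45, with overlapping libraries, and HDAC7 (−0.38) and HDAC10 (−0.32) fell without overlap, against 10.4% and 13.8% of all genes.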

How the data were processed

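Poly(A) RNA from 17 IMR90 ER:RAS libraries was sequenced as stranded read pairs. Before deposition the authors removed adapters (Cutadapt 4.7) and placed pairs on GRCh38 using HISAT2 2.2.1, with up to 100 alignments retained for a pair. The deposited values are estimated counts per gene and repeat locus, unscaled, in which TElocal shared multimapping pairs among loci by maximum likelihood with strand taken into account, so near-identical LTR12 copies can exchange counts. Repeat loci were those of RepeatMasker 4.1.5, run on Dfam 3.7 models through HMMER 3.3.2, and genes are stated as Ensembl release 100. Positions of genes and exons were taken from GENCODE 44, which held 62700 of the 62754 gene IDs.

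Counts were read as whole numbers. Genes with subfamily sums, and genes with repeat loci of 10 or more counts in all, were fitted separately over all 17 libraries. The fits used edgeR 4.0.16 in R 4.3.3 (TMM, filterByExpr, quasi-likelihood test), with Benjamini-Hochberg adjustment over all rows of a kind and a threshold of 0.05. The fit with repeat loci was tested on simulated counts. Sums over LTR12 were compared by two-sided exact permutation tests of log2 CPM. LTR orientation was found with blastn 2.17.0 against an LTR12C locus oriented by a gene that starts in it, and overlaps with bedtools 2.31.1. Groups came from the titles.

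Members, lists and named items were chosen with earlier results of these data known. Named were the 5 loci with the most counts and, per comparison, up to 8 called loci and up to 8 called LTR12-start genes in each direction with the largest changes and no overlap, and all listed genes. Alternatives were other scalings, DESeq2 1.42.0, no filter, V or VM tags, single siRNA numbers, a replicate block, a covariate of sparse counts, other loci summed and leaving out each library. Sequences of some other loci are not reported here.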

Additional observations from a re-analysis of the deposited data

Results flagged for a closer look

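Of 96 groups of libraries examined, 10 held a value far from the others of the group, and chance flags about 1 in 20 groups. In 4OHT siSMARCA4, library 2-3V held 45.1 CPM of all LTR12 against 49.9 to 52.5 in the other 5, and 246 CPM of GARS1 against 275 to 279. In the same group, library 2-3VM held 1.58 CPM of LTR12_v against 0.744 to 0.966, library 2-1VM held 0.177 CPM of the LTR12E upstream of ADAMTS6 (LTR12E 5:65484722) against 0.0375 to 0.0773, and library 4-3V held 0.522 CPM of IL16 against 0.117 to 0.249.

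In DMSO siNT, library 4-2VM held 0.0968 CPM of the LTR12C upstream of RND3 (LTR12C 2:150541289) against 0 to 0.0199, and 0.213 CPM of LINC01252 against 0.0347 to 0.0796. Library 4-3VM held 0.252 CPM of the LTR12D in ZNF438 (LTR12D 10:30929195) against 0.0867 to 0.122. In 4OHT siNT, library 2-1VM held 1.04 CPM of that LTR12D against 1.74 to 1.93, and library 2-2VM held 0.196 CPM of LINC01252 against 0.241 to 0.265. The causes were not tested.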

How the results depend on the processing

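Among the 14 loci, 7 subfamilies and 9 genes recomputed under each alternative, no called value changed sign: 1241 values kept their side of the threshold, 65 lost the call and 9 gained one. Values that were not called could change sign, as for the LTR12C in GNAI1 with knockdown (−0.60 to 0.17). Values under the alternatives are not given here for the HERV9 interiors, the named loci on chromosomes 1 and 8 or the 5 loci outside the naming rule. Nor are they given for the neighbouring genes and the listed factor and deacetylase genes. The causes were not tested unless an alternative itself removes libraries. For the LTR12 total, scaling on repeat rows moved the knockdown difference to −0.40 (exact permutation p = 0.00866), and the senescence difference was 0.79 and 1.23 within siRNA numbers 2 and 4, where the exact permutation p of 0.1 is the smallest possible. Leaving out 1 library at a time gave −0.20 to −0.08 and 0.96 to 1.08.

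The LTR12 share of LTR/ERV1 counts with knockdown lost the threshold among VM libraries (−0.851 percentage points) and without the 5 loci with the most counts (−0.438), an alternative chosen after seeing the data. Within siRNA numbers 2 (−0.470) and 4 (−2.66, without overlap) it could not pass, since 3 libraries against 3 allow no exact permutation p below 0.1. It ranged from −1.82 to −1.29 with 1 library left out, and lost the threshold without 4OHT siNT 4-1VM, 4-2VM or 4-3VM or 4OHT siSMARCA4 2-3V, 2-3VM, 4-2V or 4-3V (exact permutation p up to 0.0714). In senescence the share differed by 3.33 and 5.23 points within the numbers (exact permutation p = 0.1) and by 4.04 to 4.56 with 1 library left out.

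LTR12 loci called with knockdown numbered 3, and 0 within siRNA number 2, 0 within number 4 and 0 with sparse counts as covariate (9, 4 and 3 loci had an unadjusted p under 0.05), and 2 to 4 with 1 library left out. Scaling on repeat rows gave 0 higher and 3 lower, with 1.63% higher and 4.33% lower among all loci. In senescence 20 were called, 9 within number 4, and 16 to 21 with 1 library left out. Start genes called with knockdown numbered 7, 3 within number 4, 3 with sparse counts as covariate, 15 of 78 with starts of any transcript, and 6 to 8 with 1 library left out. In senescence 16 were called, 39 of 78 (11 higher, 28 lower) with starts of any transcript, and 14 to 19 with 1 library left out. DESeq2 called 3 and 21 loci and 10 and 16 start genes. Apart from scaling on repeat rows, the shares of all loci or genes called under the alternatives are not given here. Counts under them therefore do not set LTR12 apart from other repeats or genes.

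With the title tag as a replicate block, 3 loci (2 higher, 1 lower) and 7 start genes were called with knockdown, and 16 loci and 11 start genes in senescence. Libraries of the same tag and siRNA number did not deviate together throughout (correlations of 0.10, −0.13 and 0.34 between the 4OHT groups and −0.44, −0.32 and 0.18 between the siNT groups), so the tags were not read as pairs. Of the 5999 loci, 5966 had too few counts to be tested singly, and whether deeper sequencing would change this was not tested.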
